A study of Mus musculus with 4 samples.

Results

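The genes of the interleukin 6 family examined here were the ligands *Il6*, *Il11*, *Lif* and *Osm*, the receptor chains *Il6ra*, *Osmr* and *Il6st*, and the feedback inhibitor *Socs3*. These 8 genes were chosen by symbol among the 30905 genes of the deposited count matrix, and all 8 were found. The cells came from 4 mouse hearts transplanted into the abdominal cavity of C57BL/6J recipients and collected on day 5, profiled with the 10x Chromium 3' kit v3. In the 2 allogeneic grafts the donor hearts were from Balb/C mice, and in the 2 syngeneic grafts from C57BL/6J mice, and the study used male mice of 8 to 10 weeks. All grafts shared the operation, and no drug treatment or genetic change was described for these samples. Each cell barcode ends in a number from 1 to 4 that separates the 4 libraries, but no label or text pairs a number with a graft. Allogeneic and syngeneic grafts were therefore not compared. All cells were treated as 1 pooled sample, the libraries are called libraries 1 to 4, and no value has replicates or a test.

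Cytokines of this family signal through receptor complexes that contain gp130, the protein of *Il6st*. Interleukin 6 first binds its own chain, the protein of *Il6ra*, which is found on few cell types but can be shed and then act on cells that carry gp130 only. Oncostatin M (*Osm*) pairs gp130 with the chain of *Osmr*, leukemia inhibitory factor (*Lif*) with that of *Lifr*, and interleukin 11 with that of *Il11ra1*. The complexes activate JAK kinases and STAT3, and STAT3 induces *Socs3*, which shuts the signal off. In the heart these cytokines are known from inflammation, fibroblast activation and survival of cardiomyocytes.

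RefSeq promoters on GRCm38.p6 were found for 7 of the 8 genes, and those of *Il6*, *Il11*, *Lif* and *Socs3* are shown because the results turn on how these genes differed between libraries. Each is the 250 bases before a transcription start, written in the direction of transcription, and capitals mark matches to the motifs searched on both strands.
*Il6*, chr5:30012864-30013113, plus strand: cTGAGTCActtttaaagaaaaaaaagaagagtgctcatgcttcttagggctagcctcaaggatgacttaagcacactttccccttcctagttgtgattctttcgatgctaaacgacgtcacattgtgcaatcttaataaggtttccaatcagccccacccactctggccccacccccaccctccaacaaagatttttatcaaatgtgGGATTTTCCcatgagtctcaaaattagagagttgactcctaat
*Il11*, the downstream of its 2 starts, chr7:4778142-4778391, minus strand: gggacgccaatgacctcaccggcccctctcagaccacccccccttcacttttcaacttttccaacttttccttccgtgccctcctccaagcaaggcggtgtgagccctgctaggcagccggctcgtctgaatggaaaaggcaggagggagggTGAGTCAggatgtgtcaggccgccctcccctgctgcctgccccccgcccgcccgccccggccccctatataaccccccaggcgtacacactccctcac
*Lif*, chr11:4257318-4257567, plus strand: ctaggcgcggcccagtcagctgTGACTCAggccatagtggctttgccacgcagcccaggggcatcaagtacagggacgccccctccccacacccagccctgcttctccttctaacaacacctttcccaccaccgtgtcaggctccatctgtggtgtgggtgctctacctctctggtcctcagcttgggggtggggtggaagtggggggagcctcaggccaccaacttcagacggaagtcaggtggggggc
*Socs3*, chr11:117969367-117969616, minus strand: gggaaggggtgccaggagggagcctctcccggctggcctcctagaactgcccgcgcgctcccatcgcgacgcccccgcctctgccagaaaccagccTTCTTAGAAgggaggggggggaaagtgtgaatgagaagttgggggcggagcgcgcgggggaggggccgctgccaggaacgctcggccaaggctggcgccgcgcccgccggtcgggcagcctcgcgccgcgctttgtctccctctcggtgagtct
The windows searched also held the 50 bases after the start. Of the 7 genes searched, the STAT motif TTCNNNGAA was found in *Socs3* only, as TTCTTAGAA beginning 154 bases before the start, and in 8.30% of all 32851 promoters. The AP-1 motif TGANTCA began 249 bases before the start of *Il6*, 98 before that of *Il11*, 228 before that of *Lif* and 3 bases after that of *Osmr*, against 7.81% of all promoters. The kappa B motif GGNNTTTCC began 43 bases before the start of *Il6* and stood in 5.82% of promoters, and the CRE motif TGACGTCA, in 1.79% of promoters, was in none of these windows. The promoters of *Il6ra* and *Il6st* and the upstream start of *Il11* held none of the 4 motifs. These matches are letters in a window, not measured binding sites.

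On GRCm38 the genes lie on 6 chromosomes. *Osm* (ENSMUSG00000058755, chromosome 11, 4236420 to 4241026) and *Lif* (ENSMUSG00000034394, chromosome 11, 4257557 to 4272514) are neighbours on the plus strand, 16531 bases apart. *Il6* (ENSMUSG00000025746) is on chromosome 5 from 30013114 to 30019981, *Il11* (ENSMUSG00000004371) on chromosome 7 from 4772373 to 4782859 and *Socs3* (ENSMUSG00000053113) on chromosome 11 from 117966079 to 117970047. The receptor genes are *Il6ra* (ENSMUSG00000027947, chromosome 3, 89864059 to 89913196), *Il6st* (ENSMUSG00000021756, chromosome 13, 112464070 to 112510086) and *Osmr* (ENSMUSG00000022146, chromosome 15, 6813577 to 6874969), 215645 bases from *Lifr*.

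The libraries held 96020294 to 166079145 unique molecular identifiers (UMIs), with a median per deposited cell from 4759 to 9784. Of the 53516 distinct barcodes, 308 occurred in more than 1 library. After filtering, 42395 cells fell into 28 clusters, of which 26 were named by marker genes as 12 classes and 2 stayed unnamed. For 13 clusters, 1 library supplied over 90% of the cells, and there cluster and library cannot be told apart. The largest classes were endothelial-like (12379 cells), macrophage-like (8604), fibroblast-like (6464) and granulocyte-like cells (3885), and cardiomyocyte-like (1093), dendritic-like (1256) and erythroid-like cells (1512) had median depths of only 1303, 1204 and 1293 UMIs. Levels are a gene's UMIs per 1000000 non-mitochondrial UMIs (CPM), pooled over the cells of a class. In parentheses they carry 95% Poisson intervals, computed exactly, and shares of cells carry 95% Clopper-Pearson intervals, which all cover counting error only.

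With all libraries pooled, *Il6* was highest in pericyte-like and fibroblast-like cells, *Il11* and *Lif* in fibroblast-like cells, and *Osm* and *Il6ra* in granulocyte-like and macrophage-like cells. The leading class of *Il11* turned to the pericyte-like with cells thinned to 1000 UMIs, with each cell named on its own, and without clusters 17 and 18, described with the ligands. *Osmr* and *Il6st* were highest in pericyte-like and lymphatic endothelial-like cells, and *Socs3* was found at 134 CPM or more in each of the 12 classes. A leading class at least 2-fold above the next was found for 2 of the 8 genes, *Lif* and *Il6st*, against 24.2% of the 11902 genes with at least 10 CPM in a class.

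**Figure D1:**
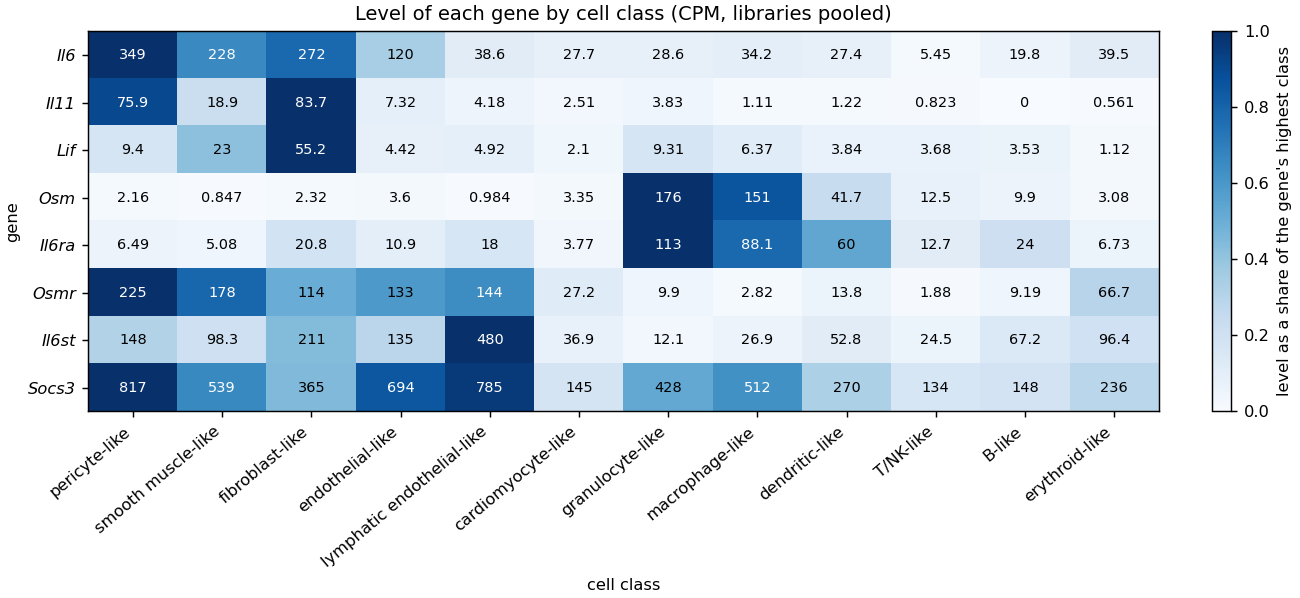
Level of each of the 8 genes (rows) in each of the 12 cell classes (columns), in CPM pooled over the libraries and printed in each cell, with colour scaled to the gene's own highest class. The dark cells of *Il6*, *Il11*, *Lif* and *Osmr* lie among the mural and fibroblast-like classes on the left, and those of *Osm* and *Il6ra* among the granulocyte-like and macrophage-like classes.

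*Il6*, the founding ligand of the family, was highest in structural cells of the grafts. Its level was 349 CPM (341 to 357) in pericyte-like cells, 272 CPM (268 to 275) in fibroblast-like cells, 228 CPM (218 to 238) in smooth muscle-like cells and 120 CPM (118 to 123) in endothelial-like cells. Macrophage-like cells had 34.2 CPM and T/NK-like cells, the lowest class, 5.45 CPM. The first 3 of these classes were in order beyond counting error, with pericyte-like cells 1.28-fold (1.25 to 1.32) above fibroblast-like cells. By number, 52.2% of the 55924 *Il6* UMIs of the filtered cells were in fibroblast-like, 22.0% in endothelial-like, 11.8% in pericyte-like and 7.80% in macrophage-like cells. An *Il6* UMI was found in 41.1% of pericyte-like cells (median depth 6439 UMIs) and in 45.6% of fibroblast-like cells (13695.5 UMIs), against 6.69% of T/NK-like cells (8453.5 UMIs). With each cell thinned at random to 1000 UMIs these shares were 16.3%, 15.2% and 1.03%.

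The order of the classes for *Il6* changed between libraries. In pericyte-like cells *Il6* had 169, 414 and 375 CPM in libraries 1, 2 and 3, and in smooth muscle-like cells 64.2, 288 and 280 CPM. Library 1 was thus the lowest for both kinds of mural cell, 2.45-fold below library 2 in the pericyte-like and 4.48-fold below it in the smooth muscle-like cells. In endothelial-like cells *Il6* had 33.1, 106, 190 and 137 CPM in libraries 1 to 4, a 5.74-fold range with library 1 again lowest. Fibroblast-like cells had 254, 426, 221 and 233 CPM and did not follow this pattern, their library 1 being above libraries 3 and 4. Among classes with at least 50 cells in a library, fibroblast-like cells had the highest *Il6* level in libraries 1, 2 and 4, and pericyte-like cells in library 3. In library 2 these classes were close, at 426 and 414 CPM. Library 4 had only 40 pericyte-like and 12 smooth muscle-like cells, which were not ranked there. Pericyte-like cells also carried endothelial markers, 8 genes summing to 3421, 3863 and 4114 CPM in libraries 1 to 3 against 7147, 7917 and 7896 CPM in the endothelial-like cells. *Il6* in the pericyte-like cells exceeded that of the endothelial-like cells in each of these libraries, and the part of endothelial RNA in it was not tested.

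Macrophage-like cells contained *Il6* mainly in library 2. Their levels were 17.1, 178, 12.2 and 15.5 CPM in libraries 1 to 4, a 14.6-fold range (12.6 to 16.9). In library 2 an *Il6* UMI was found in 42.0% of the 1009 macrophage-like cells, and in the other libraries in 12.4% to 13.1%. Of these cells 860 were in cluster 16, led by *Arg1*, *Ccl24* and *Ccl9*, with *Il6* at 171 CPM, whereas the clusters led by *Ly6i* and *Ms4a4c* (cluster 2), *Ccl8* (cluster 10) and *Fcrls* (cluster 11) had 19.3, 9.40 and 14.3 CPM. The summed level of 8 fibroblast markers was 226 CPM in the macrophage-like cells of library 2, against 389 to 896 CPM in those of the other libraries. The fibroblast-like cells of library 2 were themselves the lowest in these markers. Their main cluster (cluster 18) was led by *Prg4* and *Cxcl5*, which were at 27.0 and 111 CPM in cluster 16. In clusters 2, 10 and 11 *Prg4* was at 0.729 to 6.43 CPM and *Cxcl5* at 2.88 to 9.52 CPM. The 8 granulocyte markers summed to 5471 CPM in the macrophage-like cells of library 2 against 130 to 315 CPM in those of the other libraries. *Il6* was at 29.3 CPM in the granulocyte-like cells of library 2. The part of fibroblast-like or granulocyte-like cells, or of their RNA, in the *Il6* level of the macrophage-like cells was not tested.

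*Il11*, a ligand linked to fibroblast activation, was highest in mesenchymal cells. Its level was 83.7 CPM (82.0 to 85.5) in fibroblast-like, 75.9 CPM (72 to 79.9) in pericyte-like and 18.9 CPM in smooth muscle-like cells, and at most 7.32 CPM in the other classes. Fibroblast-like cells held 76.4% and pericyte-like cells 12.2% of its 11779 UMIs. No *Il11* UMI was found in the 326 B-like cells, and a floor of 3 counts allows a share of cells with a UMI of up to 0.920%. An *Il11* UMI was found in 10.2% of fibroblast-like and 8.06% of pericyte-like cells, against 1.53% of macrophage-like cells at the higher median depth of 14226 UMIs. After thinning the shares were 2.13%, 3.09% and 0.20%.

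*Il11* differed more between libraries than any other member in fibroblast-like and pericyte-like cells. In fibroblast-like cells it had 3.32, 358, 7.21 and 73.9 CPM in libraries 1 to 4, so that library 2 stood 108-fold (88.3 to 133) above library 1 and library 4 stood between. Without library 2 the pooled level of 83.7 CPM was 17.3 CPM, and within library 1 smooth muscle-like cells had the highest level, 4.71 CPM. The 8 fibroblast markers summed to 68743, 17612, 54718 and 31836 CPM in these cells of libraries 1 to 4 and the 8 granulocyte markers to 342, 759, 103 and 98.2 CPM, and their part in the *Il11* and *Lif* levels was not tested. In pericyte-like cells it had 2.37, 201 and 3.51 CPM in libraries 1 to 3. Here library 2 was 84.5-fold above library 1, and libraries 1 and 3 had overlapping intervals. The fibroblast-like cells of library 2 fell mostly (793 cells) into cluster 18, led by *Prg4*, *Cxcl5* and *Ptx3*, with *Il11* among its 10 leading genes at 361 CPM, so the cluster was partly defined by it. Those of library 4 fell mostly (561 cells) into cluster 22, led by *Timp1*, *Cxcl14* and *C1rb*, with 73.3 CPM. The fibroblast-like clusters drawn from libraries 1 and 3, led by *Cilp* and *Postn* (cluster 5), *Clec3b* (cluster 8) and *Dkk3* (cluster 14), had 6.50, 3.11 and 6.61 CPM.

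A small number of cells held most of the *Il11* UMIs. The 65 fibroblast-like cells with the most UMIs, 1% of the class, held 76.9% of its 8997 *Il11* UMIs, and a single cell of library 2 held 909. Without that cell the level in the fibroblast-like cells of library 2 was 315 CPM. In library 2, 30.3% of the 815 fibroblast-like cells had an *Il11* UMI, and the top 9 cells held 37.8% of its UMIs there. In smooth muscle-like cells of library 2, 103 of 134 *Il11* UMIs were in 1 cell, and the level fell from 45.1 to 10.6 CPM without it. *Il6* was spread more widely, with 17.5% of the fibroblast-like UMIs in the top 65 cells, and *Osm* wider still, with 10.5% of the macrophage-like UMIs in the top 87 cells.

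**Figure D2:**
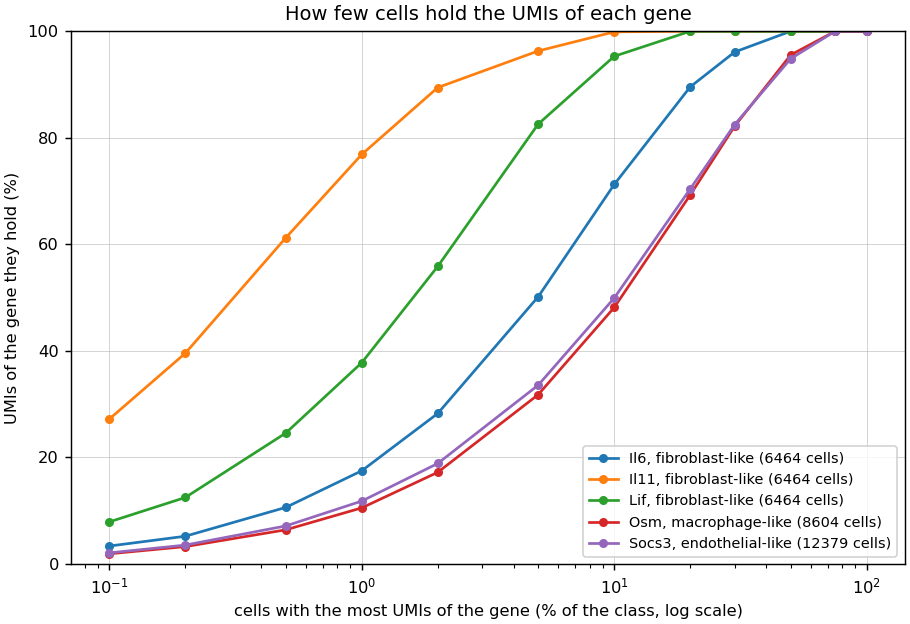
Share of a gene's UMIs (vertical axis, %) held by the cells of a class with the most UMIs of it (horizontal axis, % of cells, log scale). At 1% of the cells the curve of *Il11* in fibroblast-like cells stands at 76.9%, that of *Lif* at 37.8%, *Il6* at 17.5%, *Socs3* in endothelial-like cells at 11.8% and *Osm* in macrophage-like cells at 10.5%.

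*Lif*, a ligand known for effects on stem cells and muscle, had its highest level in fibroblast-like cells, 55.2 CPM (53.8 to 56.6), 2.40-fold (2.08 to 2.79) above smooth muscle-like cells at 23.0 CPM. The other classes ranged from 1.12 CPM in erythroid-like to 9.40 CPM in pericyte-like cells. A *Lif* UMI was found in 14.3% of fibroblast-like and 3.48% of T/NK-like cells, or 3.01% and 0.488% after thinning. In fibroblast-like cells the levels were 5.40, 188, 17.3 and 73.6 CPM in libraries 1 to 4, the same order as for *Il11*, with library 2 34.9-fold (29.7 to 41.1) above library 1. In library 2, 49.7% of the fibroblast-like cells had a *Lif* UMI. Smooth muscle-like cells had 0, 40.8 and 25.1 CPM in libraries 1 to 3, but 74 of 121 and 40 of 69 UMIs came from single cells in libraries 2 and 3. With library 1 set to a floor of 3 UMIs, library 2 was 31.8-fold higher, but its level was 15.9 CPM without its highest cell. Library 2 also had the highest *Lif* level in macrophage-like cells, 31.7 CPM against 2.46 to 5.72 CPM elsewhere, and in pericyte-like cells, 23.7 CPM against 0.396 and 1.61 CPM. The 2-fold lead of fibroblast-like cells rested on library 2. Without that library their level was 22.9 CPM and the lead was under 2-fold, and without clusters 17 and 18, described next, smooth muscle-like cells had the higher level.

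A single cluster of endothelial-like cells of library 2 was high in *Il6*, *Il11* and *Lif*. Cluster 17, 1001 cells led by *Gm26870*, *Snhg9* and *Cxcl5*, had *Il6* at 391 CPM, *Il11* at 87.6 CPM and *Lif* at 78.7 CPM, while the main endothelial-like cluster of library 2 (cluster 3, led by *Timp4*, *Car4* and *Gpihbp1*) had 76.4, 9.60 and 3.11 CPM. Cluster 17 carried markers of other classes too, 3403 CPM of 8 fibroblast and 22770 CPM of 8 granulocyte markers beside 3875 CPM of 8 endothelial markers, against 146, 1407 and 8361 CPM in cluster 3. The part of these cells or of their RNA in the cluster's ligand levels was not tested. In the endothelial-like cells of libraries 1, 3 and 4, *Il11* was at 1.33 to 3.12 CPM and *Lif* at 0.257 to 4.08 CPM. Cells with UMIs of several ligands were rare after thinning: 1.19% of fibroblast-like cells had *Il6* and *Lif*, 0.570% *Il6* and *Il11*, and 1.33% of pericyte-like cells *Il6* and *Il11*.

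*Osm*, a ligand made by myeloid cells, was highest in granulocyte-like cells at 176 CPM (169 to 183) and macrophage-like cells at 151 CPM (149 to 153). Dendritic-like cells had 41.7 CPM, T/NK-like cells 12.5 CPM and all others less than 10 CPM. The dendritic-like class (cluster 13) carried 1864 CPM of 9 macrophage and 26872 CPM of 6 erythroid markers beside 1450 CPM of 8 dendritic markers. With each cell named on its own, only 48 cells were dendritic-like. The part of other cells, or of their RNA, in the *Osm* and *Il6ra* levels of this class was not tested. The more numerous and deeper macrophage-like cells held 82.8% of the 23228 *Osm* UMIs, and granulocyte-like cells 11.5%. An *Osm* UMI was found in 59.9% of macrophage-like cells against 2.75% of fibroblast-like cells of nearly equal depth, or 13.5% and 0.228% after thinning. In granulocyte-like cells the thinned share was 13.4%. In granulocyte-like cells the levels were 196, 136, 104 and 385 CPM in libraries 1 to 4, a 3.69-fold range (2.95 to 4.68) with library 4 highest. In macrophage-like cells they were 108, 235, 137 and 143 CPM, with library 2 highest. The leading class was the granulocyte-like in libraries 1 and 4 and the macrophage-like in libraries 2 and 3. Among granulocyte-like clusters *Osm* ranged from 128 CPM (cluster 25, led by *Siglec5*, *Mmp9* and *Csf3r*) and 134 CPM (cluster 4, led by *Retnlg*) to 383 CPM in cluster 19, with 774 of its 777 cells from library 4 and led by *Trim30c*, *Slfn4* and *Asprv1*.

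**Figure D3:**
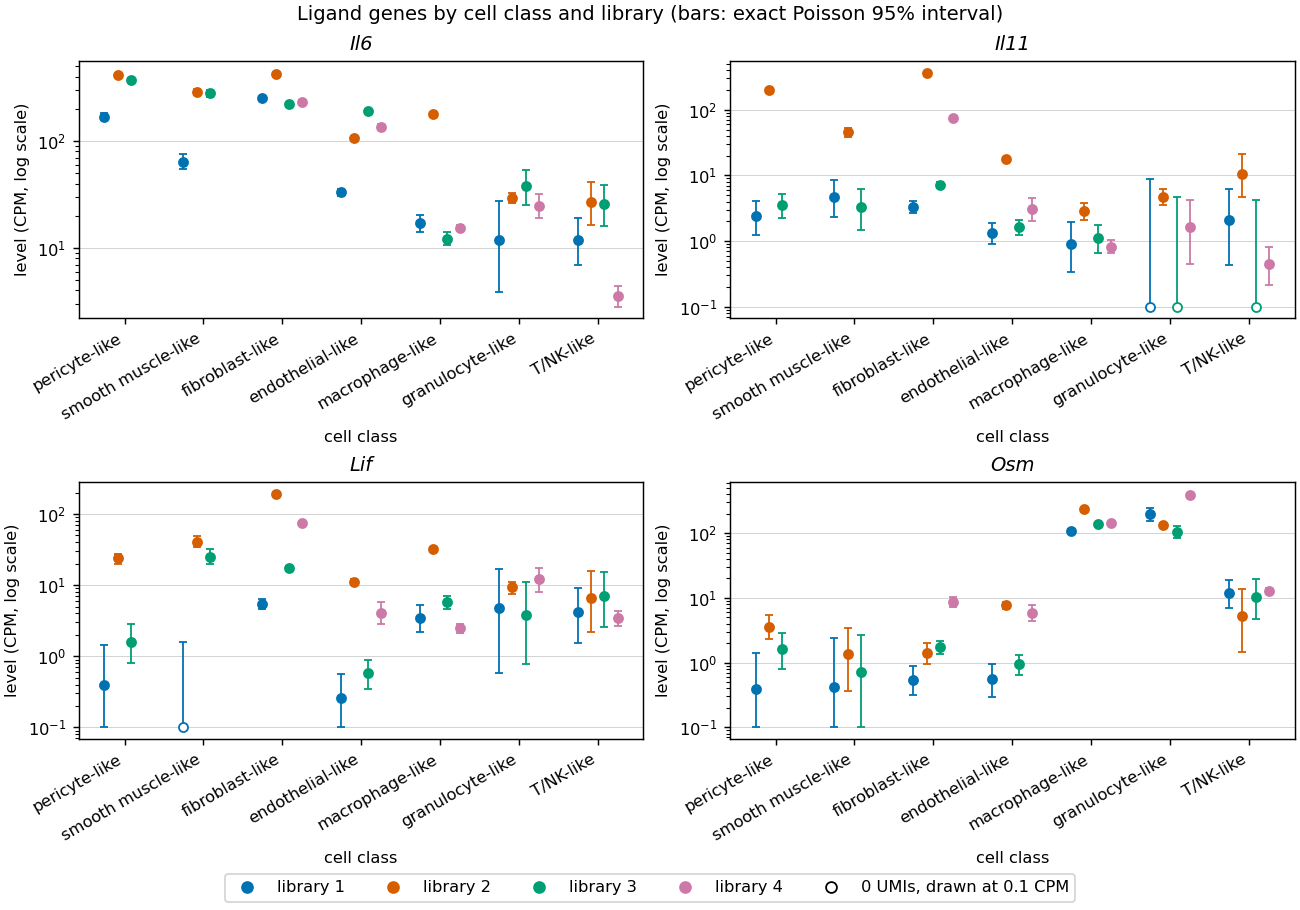
Levels of *Il6*, *Il11*, *Lif* and *Osm* (CPM, log scale) in 7 cell classes, with 1 point per library that had at least 50 cells of the class and bars for the exact Poisson 95% interval, cut at 0.1 CPM. The library 2 points of *Il11* stand above all others in the mesenchymal classes, at 358 CPM in fibroblast-like cells, and *Osm* points above 100 CPM occur in macrophage-like and granulocyte-like cells only.

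Between libraries, the members that differed at least 2-fold within a class were counted beside all genes. In pericyte-like cells 4 of the 6 members with at least 10 CPM in a library differed that much (*Il6*, *Il11*, *Lif* and *Socs3*), against 20.4% of 9338 genes, and in smooth muscle-like cells the same 4 of 6 against 24.6% of 9112 genes. In endothelial-like cells 6 of 7 did, with *Osmr* the exception, against 35.5% of genes. In macrophage-like cells 4 of 6 did (*Il6*, *Lif*, *Osm* and *Il6ra*) against 40.5%. In fibroblast-like cells 4 of 7 did (*Il11*, *Lif*, *Il6ra* and *Socs3*) against 54.8%, and in granulocyte-like cells 7 of 7 against 74.1%. In the smaller classes the counts were 7 of 7 in T/NK-like (56.7% of genes), 6 of 7 in cardiomyocyte-like (51.6%), 3 of 5 in B-like (23.3%), 2 of 6 in dendritic-like (30.8%), 2 of 5 in lymphatic endothelial-like (7.87%) and 1 of 4 in erythroid-like cells (59.7%). The members' share was thus near that of all genes in fibroblast-like cells, and in both kinds of mural cell the same 3 ligand genes and *Socs3* were counted.

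*Il6ra*, the chain that binds interleukin 6, was a gene of the myeloid classes. It was highest in granulocyte-like cells at 113 CPM (107 to 118), macrophage-like cells at 88.1 CPM (86.5 to 89.8) and dendritic-like cells at 60.0 CPM (53.8 to 66.7). The dendritic-like class also carried macrophage markers, as given with *Osm*. B-like cells had 24.0 CPM, fibroblast-like cells 20.8 CPM, T/NK-like cells 12.7 CPM and cardiomyocyte-like cells, the lowest, 3.77 CPM. An *Il6ra* UMI was found in 64.9% of macrophage-like cells and 23.4% of fibroblast-like cells, against 5.51% of pericyte-like cells, or 9.84%, 1.99% and 0.303% after thinning. In macrophage-like cells the levels were 158, 69.6, 98.8 and 84.2 CPM in libraries 1 to 4, with library 1 2.26-fold above library 2. In granulocyte-like cells they were 104, 114, 175 and 85.2 CPM, with library 3 highest.

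Endothelial-like cells of library 4 stood apart in *Il6ra*. Its levels were 5.52, 7.13 and 5.63 CPM in the endothelial-like cells of libraries 1 to 3 and 64.4 CPM in those of library 4, 11.7-fold (9.61 to 14.2) above library 1. An *Il6ra* UMI was found in 44.3% of the 636 endothelial-like cells of library 4 and in 3.16% to 5.33% of those of the other libraries. All of these cells were in cluster 21, led by *Ubd*, *Gbp2b* and *Tpm3-rs7*. The 9 macrophage markers summed to 431 CPM in them, against 71.8 to 129 CPM in the endothelial-like cells of the other libraries and 11496 CPM in the macrophage-like cells of library 4, where *Il6ra* was at 84.2 CPM. In the fibroblast-like cells of library 4, with a macrophage marker sum of 695 CPM, *Il6ra* was at 15.7 CPM. The part of macrophage-like cells, or of their RNA, in the *Il6ra* level of the endothelial-like cells was not tested. The same endothelial-like cells had *Il6st* at 269 CPM, against 101 to 138 CPM in the others, and *Osmr* at 127 CPM, within the range of 107 to 168 CPM of the others. The 8 endothelial markers summed to 4280 CPM in library 4 against 7147 to 7917 CPM in the others. The 5 lymphatic endothelial markers summed to 745 CPM in library 4 against 108, 74.1 and 176 CPM in libraries 1 to 3, and their part in the *Il6st* level was not tested. In the lymphatic endothelial-like cells of libraries 1 and 3 they summed to 15914 and 13936 CPM.

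*Osmr*, the oncostatin M receptor chain, had a pattern opposite to that of its ligand. It was highest in pericyte-like cells at 225 CPM (218 to 232), followed by smooth muscle-like cells at 178 CPM, lymphatic endothelial-like cells at 144 CPM, endothelial-like cells at 133 CPM and fibroblast-like cells at 114 CPM. The intervals of the lymphatic endothelial-like (133 to 157) and endothelial-like cells (131 to 136) overlapped, and those of the other neighbours in this order did not. Macrophage-like cells had 2.82 CPM and T/NK-like cells 1.88 CPM, the lowest levels. An *Osmr* UMI was found in 64.8% of pericyte-like and 3.66% of macrophage-like cells, or 20% and 0.259% after thinning. In *Osmr* the libraries were closer: 296, 201 and 202 CPM in pericyte-like cells of libraries 1 to 3, 144, 230 and 153 CPM in smooth muscle-like cells, and 155, 102, 83.6 and 136 CPM in fibroblast-like cells of libraries 1 to 4. The range was under 2-fold in each of these classes and in endothelial-like cells.

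*Il6st*, the shared gp130 chain, was detected in every class, and its highest level was in lymphatic endothelial-like cells. These 366 cells, led by *Ccl21a*, *Mmrn1* and *H19*, had 480 CPM (459 to 501), 2.27-fold above fibroblast-like cells at 211 CPM (208 to 214). Pericyte-like cells had 148 CPM, endothelial-like cells 135 CPM, smooth muscle-like cells 98.3 CPM, macrophage-like cells 26.9 CPM and granulocyte-like cells, the lowest, 12.1 CPM. An *Il6st* UMI was found in 82.2% of lymphatic endothelial-like cells and 4.48% of granulocyte-like cells, or 33.9% and 1.44% after thinning. Lymphatic endothelial-like cells came almost entirely from libraries 1 and 3, with *Il6st* at 710 and 295 CPM, so that the level differed 2.41-fold (2.19 to 2.65) between them and was above every other class in both. In fibroblast-like cells *Il6st* was at 246, 212, 170 and 258 CPM in libraries 1 to 4, a range of 1.52-fold. With doublets kept, at a resolution of 0.4 or without a limit on mitochondrial UMIs, *Il6st* no longer had a class 2-fold above the next. Without that limit no cluster took the lymphatic endothelial-like name, and fibroblast-like cells were highest. With each cell named on its own only 140 cells were lymphatic endothelial-like. There, and without library 1 or library 3, the lymphatic endothelial-like cells fell under the 200 cells required of a class, and fibroblast-like cells were then highest.

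**Figure D4:**
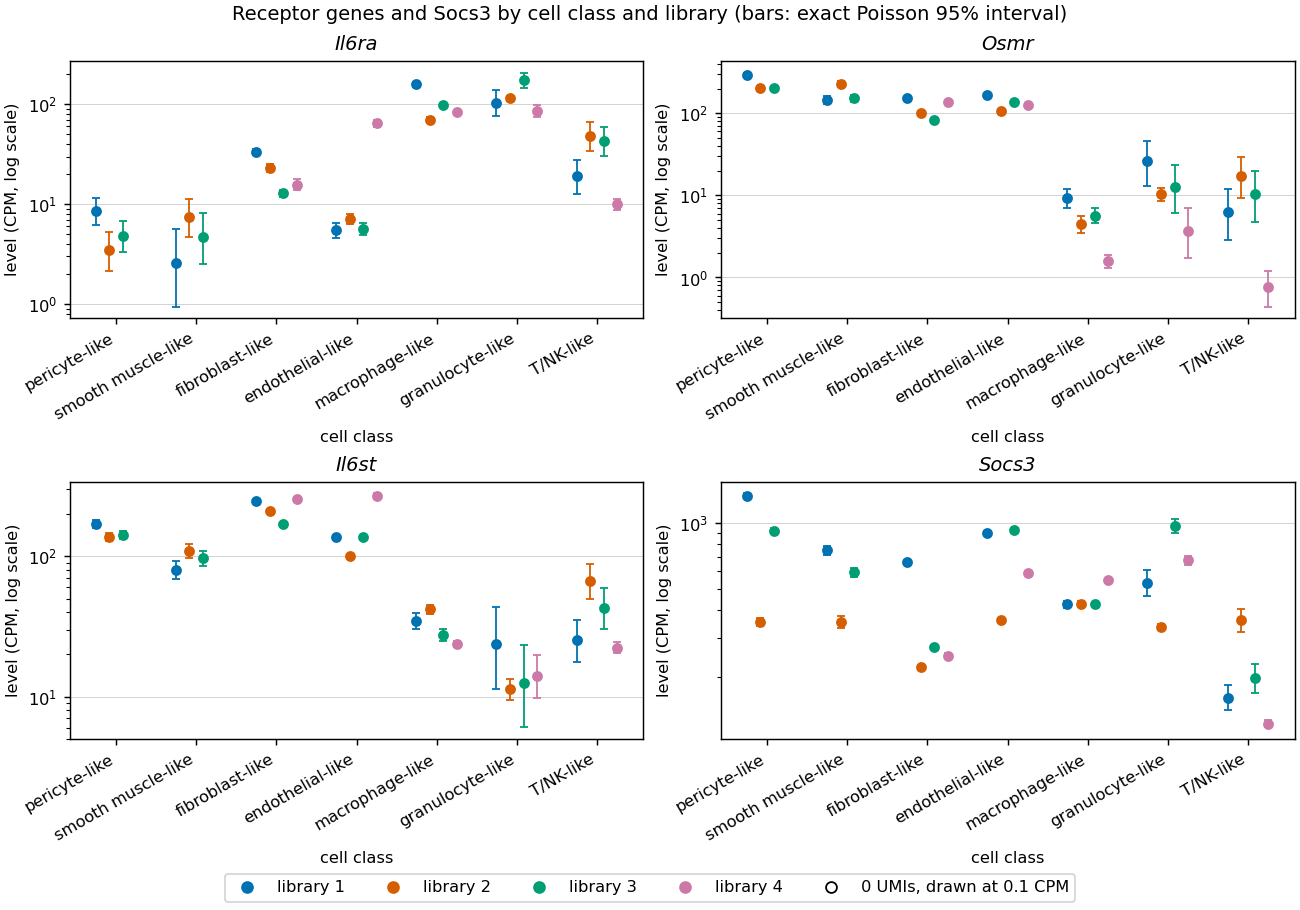
Levels of *Il6ra*, *Osmr*, *Il6st* and *Socs3* (CPM, log scale) in 7 cell classes, with 1 point per library that had at least 50 cells of the class and bars for the exact Poisson 95% interval, cut at 0.1 CPM. The *Il6ra* point of library 4 in endothelial-like cells, 64.4 CPM, lies far above those of libraries 1 to 3. The library 2 points of *Socs3* are the lowest in the pericyte-like, smooth muscle-like, fibroblast-like, endothelial-like and granulocyte-like cells, and the highest in the T/NK-like cells.

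A receptor complex needs *Il6st* and a second chain in the same cell, or a shed *Il6ra*. In cells thinned to 1000 UMIs no class had UMIs of both chains in over 10% of its cells, and in cells thinned to 2000 UMIs 2 classes did. *Il6st* with *Osmr* was found in 5.83% (3.65 to 8.78) of lymphatic endothelial-like, 2.85% of pericyte-like, 2.31% of fibroblast-like and 1.79% of endothelial-like cells. It was found in 1 of 8504 macrophage-like cells. The product of the single shares of the 2 chains is what independent detection would give. This product was 4.33% in lymphatic endothelial-like, 2.55% in pericyte-like, 2.12% in fibroblast-like and 1.54% in endothelial-like cells. *Il6st* with *Il11ra1* was found in 5.28% (3.21 to 8.12) of lymphatic endothelial-like and 4.39% (3.89 to 4.94) of fibroblast-like cells, and in at most 0.817% of the other classes. Its product was 4.05% in lymphatic endothelial-like and 3.96% in fibroblast-like cells. *Il6st* with *Lifr* was found in 4.44% (2.56 to 7.12) of lymphatic endothelial-like cells, with a product of 3.01%, and in under 1% of every other class. The lead of lymphatic endothelial-like cells for *Osmr* and *Il11ra1* held in library 1 but not in library 3. For *Osmr* they had 9.64% against 2.91% of pericyte-like cells in library 1, and 2.12% against 3.62% in library 3. For *Il11ra1* they had 8.43% against 6.68% of fibroblast-like cells in library 1, and 2.65% against 3.44% in library 3.

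The share of cells with UMIs of both *Il6st* and *Il6ra* depended on depth. After thinning the share was 0.423% (0.277 to 0.619) in fibroblast-like, 0.421% (0.115 to 1.07) in erythroid-like and 0.388% (0.267 to 0.545) in macrophage-like cells. These intervals overlapped, so their order is not resolved. The products of the single shares were 0.379%, 0.119% and 0.302%. The erythroid-like share was 4 of 951 cells, and this class also carried 3633 CPM of 8 endothelial markers. At full depth the shares were 22.0% in fibroblast-like and 20.7% in macrophage-like cells, 10.9% in lymphatic endothelial-like, 4.70% in endothelial-like and 1.52% in granulocyte-like cells, whose median depths run from 3469 to 14226 UMIs. Within endothelial-like cells the thinned share was 1.57% in library 4 and 0.0605% to 0.0819% in libraries 1 to 3. *Osmr* with *Il6st* at full depth reached 58.6% in fibroblast-like, 53.6% in lymphatic endothelial-like, 46.3% in pericyte-like and 31.2% in endothelial-like cells, against 1.45% in macrophage-like cells. *Il11ra1* with *Il6st* reached 67.7% in fibroblast-like cells at full depth. By library its thinned share in fibroblast-like cells was 6.68%, 1.99%, 3.44% and 2.57% in libraries 1 to 4, lowest in the library with the highest *Il11* level.

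**Figure D5:**
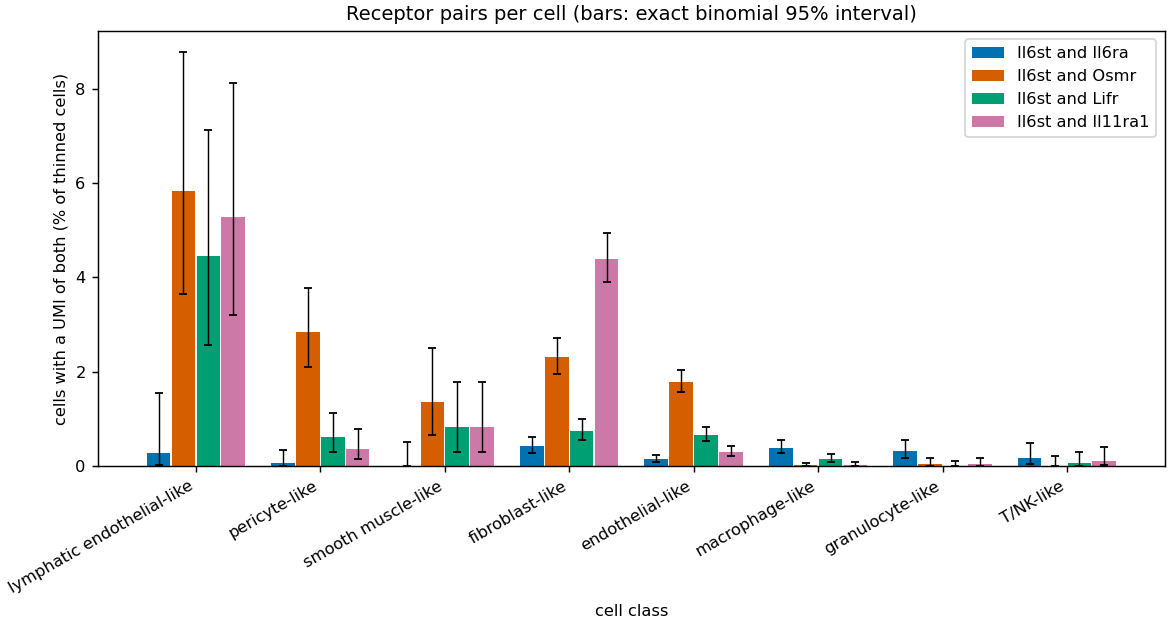
Share of cells with a UMI of *Il6st* and of a second receptor chain (%, cells thinned to 1000 UMIs) in 8 cell classes, with bars for the exact binomial 95% interval. With the libraries pooled, lymphatic endothelial-like cells have the highest shares for *Osmr* (5.83%), *Il11ra1* (5.28%) and *Lifr* (4.44%). For *Il6ra* the highest share is 0.423%, in fibroblast-like cells.

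*Socs3*, the feedback inhibitor that STAT3 induces, had the smallest ratio of highest to lowest class among the 8 genes. With the libraries pooled it was highest in pericyte-like cells at 817 CPM (805 to 830). These were only 1.04-fold (1.00 to 1.08) above lymphatic endothelial-like cells at 785 CPM (758 to 813), and endothelial-like cells had 694 CPM (689 to 699). By library, among classes with at least 50 cells there, the highest was the pericyte-like in library 1, the macrophage-like in library 2 and the granulocyte-like in libraries 3 and 4. In library 3 the granulocyte-like and endothelial-like cells were close, at 966 and 923 CPM. Pericyte-like, smooth muscle-like and lymphatic endothelial-like cells were too few to be ranked in library 4 (40, 12 and 0 cells), and lymphatic endothelial-like cells in library 2 (5 cells). The pooled leading class turned to the lymphatic endothelial-like with cells thinned to 1000 UMIs. It turned to the endothelial-like with each cell named on its own. Smooth muscle-like cells had 539 CPM, macrophage-like cells 512 CPM, granulocyte-like cells 428 CPM and fibroblast-like cells 365 CPM. T/NK-like cells had the lowest level, 134 CPM. A *Socs3* UMI was found in 88.4% of macrophage-like and 68.9% of pericyte-like cells, but in 36.5% and 37.9% after thinning, when their order turned. The lowest thinned share was 7.73%, in cardiomyocyte-like cells.

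*Socs3* was lowest in library 2 in pericyte-like, smooth muscle-like, endothelial-like, fibroblast-like and granulocyte-like cells. In these classes except the granulocyte-like, *Il11* and *Lif* were highest in that library, and a relation between them was not tested. In T/NK-like cells *Socs3* was highest in library 2, at 361 CPM. Pericyte-like cells had 1324, 354 and 921 CPM in libraries 1 to 3, with library 1 3.74-fold (3.57 to 3.93) above library 2. Endothelial-like cells had 900, 361, 923 and 588 CPM in libraries 1 to 4, and smooth muscle-like cells 750, 354 and 594 CPM. Fibroblast-like cells had 665, 220, 272 and 248 CPM, with library 1 highest and library 2 lowest, and their *Clec3b* cluster (cluster 8) had 850 CPM. Macrophage-like cells had 426, 428, 427 and 548 CPM, a range of only 1.29-fold. Granulocyte-like cells had 532, 336, 966 and 674 CPM.

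Immediate early genes, which also rise while tissue is dissociated, had their highest level in library 1 in several of these classes. *Fos* was at 4701, 2104 and 2187 CPM in pericyte-like cells of libraries 1 to 3, at 3836, 735, 1785 and 1264 CPM in fibroblast-like cells of libraries 1 to 4, and at 3659, 1470, 1701 and 1238 CPM in endothelial-like cells. *Junb* was at 5079, 2680, 3046 and 1583 CPM in the endothelial-like cells. In macrophage-like cells *Fos* was at 464 CPM in library 2 and 2243 CPM in library 1, and *Socs3* at 428 and 426 CPM. Over all combinations of class and library with at least 100 cells, *Fos* and *Junb* had r of 0.71 and 0.78 with *Socs3*, measured as described with the likeness between genes. What part immediate early genes have in the *Socs3* levels was not tested.

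The other genes of the pathway were taken from 6 lists, each described by its number of genes with a leading class at least 2-fold above the next, to be read against the 24.2% of all genes. Of 8 other ligand genes, 5 reached 10 CPM in a class and 3 had such a class, among them *Il27* in macrophage-like cells at 38.1 CPM and *Ctf1* (cardiotrophin 1) in cardiomyocyte-like cells at 10.1 CPM. *Ebi3*, the partner chain of *Il27*, was highest in granulocyte-like cells at 56.6 CPM, and *Clcf1* in B-like cells at 27.6 CPM. *Il27* had 2.87, 0.80, 1.62 and 53.5 CPM in macrophage-like cells of libraries 1 to 4 and was thus above 3 CPM in library 4 only. Of 5 other receptor genes 4 were assessed and 1, *Cntfr*, had a leading class, the fibroblast-like at 18.2 CPM. *Il11ra1* was at 223 CPM in fibroblast-like against 112 CPM in lymphatic endothelial-like cells (1.99-fold), *Lifr* at 82.2 CPM in lymphatic endothelial-like cells, and *Il27ra* at 33.4 CPM in T/NK-like cells.

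The signalling genes were spread more evenly than the ligands. None of the 7 kinase and STAT genes had a leading class at least 2-fold above the next. *Stat3* was highest in pericyte-like cells at 382 CPM, *Jak1* in B-like cells at 315 CPM and *Jak2* in dendritic-like cells at 165 CPM. None of the 7 other negative regulators had one either, among them *Ptpn6* (macrophage-like, 413 CPM), *Socs2* (fibroblast-like, 197 CPM), *Socs1* (B-like, 181 CPM) and *Ptpn11* (smooth muscle-like, 99.5 CPM). Of the 2 proteases that shed interleukin 6 receptor, *Adam10* was highest in lymphatic endothelial-like cells at 242 CPM, 2.05-fold above endothelial-like cells, and *Adam17* in macrophage-like cells at 102 CPM.

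Genes linked to STAT3 led in several classes. Of 15 such genes 7 had a leading class at least 2-fold above the next. In fibroblast-like cells these were *Timp1*, an inhibitor of matrix proteases, at 3017 CPM and *Serpina3n* at 668 CPM. In granulocyte-like cells they were *Lcn2* (7342 CPM), *Cebpb* (5057 CPM) and *Mcl1* (2990 CPM). *Saa3*, an acute phase protein, led in macrophage-like cells at 2518 CPM, and *Steap4* in pericyte-like cells at 448 CPM. Of the others, *Junb* was highest in pericyte-like cells at 3969 CPM and *Fos* in smooth muscle-like cells at 3361 CPM. *Timp1* had 348, 5988, 1040 and 9739 CPM in fibroblast-like cells of libraries 1 to 4, high in libraries 2 and 4 as *Il11* and *Lif* were.

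Likeness between genes was measured as Pearson's r of log2(CPM + 10) over the 35 combinations of class and library with at least 100 cells, among 11043 genes. These points share libraries and differ in depth, and the values are descriptions without a test. *Il6* was most like *Il1r1* (0.93), *Sphk1* (0.87) and *Cxcl1* (0.85). *Il11* was most like *Cxcl5* (0.90), *Rdh10* (0.87) and *Mt2* (0.82), and *Lif* like *Timp1* (0.85), *Ereg* (0.83) and *Steap1* (0.82), all of them highest in fibroblast-like cells of library 2 or 4. *Osm* was most like *Fcgr3* (0.98), *Rbm47* (0.96) and *Lrrc25* (0.96), and *Il6ra* like *Lpin2* (0.89), *Atp6v1b2* (0.88) and *Cd44* (0.87). *Osmr* was most like *Nckap1* (0.96), *Rbfox2* (0.96) and *Zcchc14* (0.95), *Il6st* like *Amotl2* (0.88), *Lysmd2* (0.87) and *Tulp3* (0.87), and *Socs3* like *Zfp36* (0.84), *Sbno2* (0.83) and *Atf3* (0.81).

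Among the members themselves, *Il11* and *Lif* had r = 0.82 and *Osmr* and *Il6st* r = 0.82, and *Osm* and *Il6ra* r = 0.81. *Osm* ran opposite to *Osmr* (r = -0.72) and to *Il6st* (r = -0.71). *Socs3* had r of 0.35 for *Il6*, 0.05 for *Osm*, -0.12 for *Il11* and -0.16 for *Lif*, and 0.49 for *Osmr*. The 15 genes linked to STAT3 had a median r of 0.35 with *Socs3*, against 0.13 for all genes. They ranged from *Timp1* (-0.21), *Saa3* (-0.08), *Serpina3n* (-0.04) and *Myc* (-0.01) to *Fos* (0.71) and *Junb* (0.78). These last, the highest of the list, are the immediate early genes described above, so the list does not single out STAT3.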

How the data were processed

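The authors deposited UMI counts per gene and cell as a single merged matrix. Per its header it was made with Cell Ranger 3.0.0, and the submitters' notes name mm10 as the build and CASAVA 1.8, Cell Ranger and Seurat as tools. The counts are not normalized, and depth is given with the results.

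Of the 53824 cells, 44626 had more than 200 genes and less than 20% mitochondrial UMIs. Mitochondrial genes were then dropped. Doublets were simulated within each library, and the 5% of cells with the most simulated profiles among their 50 neighbours (2231 cells) were removed, where the authors used scran. Log-normalized values of the 2000 most dispersed genes gave 10 principal components and a graph of 30 neighbours, clustered by the Leiden method (resolution 0.8). *Il6*, *Il11*, *Lif* and *Osm* were among the variable genes; the receptors and *Socs3* were not.

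Clusters took the class with the largest share of its markers (at least 3) found at 2-fold or more and in at least 10% of cells. One rule was added after the clusters were seen: a cluster whose first leading marker belonged to another class stayed unnamed. A cluster also stayed unnamed if its leading genes held more markers of another class, or if it had low depth and no marker of its class among its leading genes. Cluster 27, with 5 of 8 cardiomyocyte markers and 146 of its 147 cells from library 4, stayed unnamed for its low depth. A gene was assessed for a leading class, or for a difference between libraries, at 10 CPM or more. Classes needed 200 cells, and libraries within a class 50 cells. For calls between libraries, a library under 3 UMIs was set to 3. Named were all 8 members, per pathway list the 4 genes with the highest level and each gene with a leading class at 50 CPM or more, and per member the 3 genes most like it. Some genes that this rule names are not reported here. *Ctf1*, and *Myc* beside *Socs3*, fall outside this rule and were named after their values were seen. Clusters are named by up to 3 leading genes.

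The members and lists were chosen with earlier results of these data known. Levels, intervals, thinning, doublet marks and clustering were tested on simulated data. The work used Python 3.11.15, with leidenalg 0.10.2, igraph 0.11.9, scipy 1.17.1 and numpy 2.4.6. Gene positions are from GENCODE M21 (GRCm38), promoters from RefSeq (GRCm38.p6). The closing section gives the alternatives tried and says which were chosen after seeing the data.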

Additional observations from a re-analysis of the deposited data

Results flagged for a closer look

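The limit on mitochondrial UMIs left out 9032 cells that the comparisons do not use, and all 8 genes were detected in them above the level that 3 UMIs give, 0.192 CPM. Their median depth was 1087 UMIs. The levels were 164 CPM for *Il6*, 9.43 CPM for *Il11*, 18.3 CPM for *Lif*, 43.6 CPM for *Osm*, 50.7 CPM for *Il6ra*, 131 CPM for *Osmr*, 156 CPM for *Il6st* and 448 CPM for *Socs3*. These cells had *Tnnt2* at 997 CPM, *Myh6* at 451 CPM and *Cdh5* at 455 CPM. With 4 unreplicated libraries, no group was large enough to look for a single outlying sample.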

How the results depend on the processing

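No paired analysis was possible because the replicate numbers of the grafts are not carried by the cells. The count of members with a leading class (2, *Lif* and *Il6st*) was 1 with doublets kept, 1 without a mitochondrial limit and 1 at a resolution of 0.4, where *Lif* was left each time, and 1 to 2 with each library left out in turn: *Lif* alone without library 1 or 3, and *Osm* with *Il6st* without library 2. It was 2 in the other alternatives, but *Il11* and *Lif* when each cell was named on its own and *Il11* and *Il6st* without clusters 17 and 18, in both of which the leading class of *Il11* was the pericyte-like. The 29 differences of at least 2-fold between libraries, summed over 6 classes, became 19 at 3-fold and 14 to 27 with each library left out, 14 without library 2 and 18 without library 1. The count of classes with a receptor pair in over 10% of cells rose from 0 to 2 with cells thinned to 2000 UMIs. The number of members and classes at 10 CPM or more (60 of 96) ranged from 49 of 80, at a resolution of 0.4 and without a mitochondrial limit, to 64, of 104 at a resolution of 1.6 and of 96 with libraries weighted equally. Of 116 member levels recomputed in their leading class, 43 stayed within the counting interval. *Il11* in fibroblast-like cells moved most, from 83.7 to 17.3 CPM without clusters 17 and 18 and to 133.6 CPM without library 3, and *Osm* in granulocyte-like cells rose from 176 to 302 CPM without library 2. Leaving the 8 genes out of the variable genes, and leaving out clusters 17 and 18, were chosen after seeing the data. Depth limits the shares of cells in the shallow classes, and the 1 pooled sample allows no test.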
